A study of Mus musculus with 45 samples.

Results

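Of 9 MMTV-PyMT mammary tumors examined by array comparative genomic hybridization (CGH), 3 carried a gain of chromosome 11 along its entire length and 6 did not, and the remaining chromosomes of both kinds of tumor were compared. The members were chosen from measured values. The log2 ratios of all chromosome 11 probes were averaged in each tumor after centring the array on the median of its autosomal probes, and a mean of at least 0.2 placed a tumor among those with the gain. These 9 are part of a series of 45 mammary tumors from 8 genetically engineered mouse models, each hybridized on 1 Agilent 44K array with 2 dyes. All 9 were invasive primary tumors taken from female mice carrying the MMTV-PyMT transgene, in which the mouse mammary tumor virus promoter drives the polyomavirus middle T antigen in the mammary epithelium. The transgene is therefore common to both kinds of tumor. The reference DNA was pooled spleen by its source label, whereas other labels of that channel name normal mammary gland. The labels give neither strain nor age, and do not say whether the tumors came from different mice, so that p-values measure the spread between these samples, part of which may be technical.

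Middle T antigen is a membrane-bound viral protein with no enzymatic activity of its own. It binds protein phosphatase 2A and Src family kinases, becomes phosphorylated on tyrosine and then recruits Shc, phosphatidylinositol 3-kinase and phospholipase C gamma, which turns on Ras and Akt signalling together. MMTV-PyMT mice develop multifocal mammary adenocarcinomas that commonly spread to the lung. Mouse chromosome 11 holds Erbb2, Trp53, Brca1 and the Stat3 and Stat5 genes, and its distal part is syntenic to human chromosome 17.

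The direction of every value rests on a choice between conflicting sources. The labels assign Cy5 to the tumor, but all 48 of the authors' filtered intervals that could be measured in these 9 arrays, of 56 listed, had the sign of Cy3 over Cy5, and Cy3 over Cy5 was taken here as tumor over reference. With the dyes as labelled every gain below becomes a loss and every loss a gain. On this log2 scale an extra copy added to a pair in every cell would give 0.58. Array CGH of bulk DNA cannot tell apart more copies in some cells from fewer extra copies in all cells.

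The arrays differed in quality. The single-probe SD, from differences between neighbouring probes, ranged from 0.185 to 0.473, and PyMT_11567 (0.473) and PyMT_11570 (0.445) were the noisiest. These arrays shared a slide and a scan date, their Cy5 signal over background (11.7 and 14.4) exceeded the Cy3 one (6.57 and 7.94) unlike in the other 7, and their probe values correlated with each other at r = 0.889 over probes, the highest of all pairs, with no identical values. Both belong to the tumors without the gain, so results are also given without them. The part of this noise in the results was not tested. Cy5 signal over background was lowest in PyMt 4 1 (2.09) and PyMt 3 (2.17). The latter is a tumor with the gain.

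The gain of chromosome 11 had nearly the same height in the 3 tumors that carried it. The mean log2 ratio of the chromosome was 0.46 in PyMt342, 0.42 in PyMt 3 and 0.40 in PyMt341, with a mean of 0.43 ± 0.04 (SD, n = 3). The other 6 tumors lay between −0.01 and 0.19, with a median of 0.00. PyMt 3, at 0.42, and PyMt341, at 0.40, were the closest above the threshold, and PyMT_11570, at 0.19, was the closest below it. These values chose the members and were not tested.

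**Figure D1:**
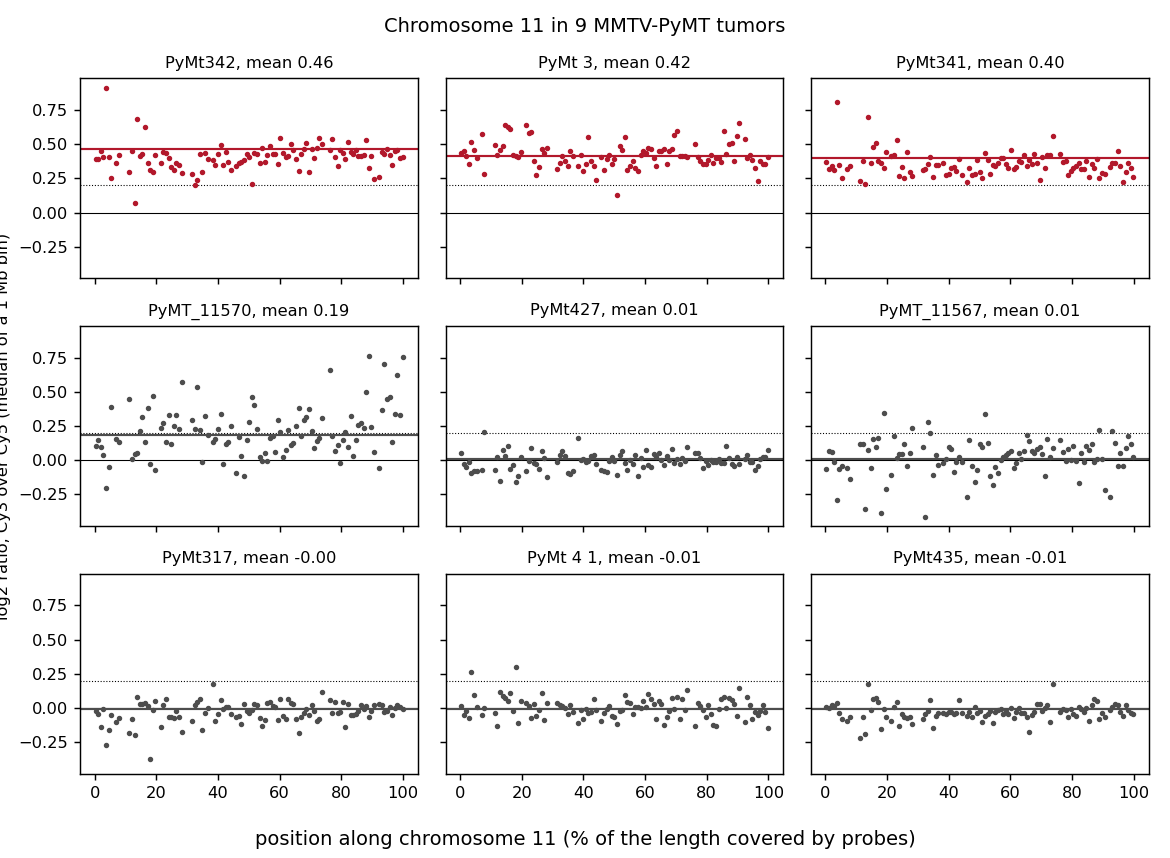
Median log2 ratio (Cy3 over Cy5) of each 1 Mb bin of chromosome 11, plotted against position as a percentage of the length covered by probes, in each of the 9 MMTV-PyMT tumors; the coloured line is the mean over probes, the dotted line 0.2. In the 3 tumors with the gain (red) 105 or 106 of the 106 bins lie at or above 0.2, whereas PyMT_11570 has 52 such bins, more of them high toward the distal end.

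The gain was not confined to a part of the chromosome in any of the 3 tumors. By segmentation, which joins neighbouring probes of like value, 100% of the chromosome 11 probes were gained in PyMt 3 and in PyMt341, and 99.8% in PyMt342. The proximal, middle and distal parts of the chromosome, of equal length, had means of 0.46, 0.41 and 0.41 in PyMt 3, of 0.40, 0.40 and 0.39 in PyMt341 and of 0.45, 0.47 and 0.47 in PyMt342. All parts thus stood close to the mean of the chromosome.

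Within the gain, segmentation set some stretches apart from the rest. With at least 20 probes these were found in PyMt 3. Between chr11:7010752-30142313 (mm8, 247 probes), which holds the epidermal growth factor receptor gene Egfr, its mean was 0.54, against 0.44 in PyMt341 and 0.48 in PyMt342. Between chr11:84833994-87431882 (mm8, 70 probes), which holds the phosphatase gene Ppm1d, the T-box gene Tbx2 and the S6 kinase gene Rps6kb1, its mean was 0.62, against 0.44 and 0.47. Over the 106 bins, the profiles of PyMt341 and PyMt342 correlated at r = 0.744, and that of PyMt 3 at 0.274 and 0.135 with them. These are descriptions over bins that share an array and its probes. Shorter stretches were chr11:43618011-44244718 in PyMt341 (5 probes, mean 1.17, median 0.93) and chr11:85126410-85657343 in PyMt342, whose 6 probes had a mean of −0.38 and a median of 0.13.

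PyMT_11570 is the tumor whose place depends most on the processing. Its proximal, middle and distal parts were at 0.16, 0.13 and 0.24, and 52 of its 106 bins were at or above 0.2. All its gained segments of at least 20 probes on the chromosome lay distal to chr11:106435398, at means between 0.52 and 0.69. Its chromosome mean became 0.11 when the array was centred on its density peak, −0.00 with normexp background correction, and 0.20 when centred on autosomes other than 11, which would bring the members to 4.

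Landmark genes of chromosome 11 showed how widely single genes scattered around the level of the chromosome. Of 40 landmark genes listed, 36 had a probe, most of them only 1 or 2. The median difference between tumors with and without the gain was 0.36 for these genes and also 0.36 for all 1590 genes of the chromosome. In 11 of the 36 every tumor with the gain was above every tumor without, which is 30.6% against 44% of all chromosome 11 genes. With limma, 6 of the 36 passed an adjusted p of 0.05, beside 227 of 1590 genes (14.3%) and 77 of 106 bins (72.6%) on the chromosome. The rule used this contrast, so nothing is read from these counts.

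Growth factor signalling genes on chromosome 11 stood at the following levels. Erbb2, the receptor tyrosine kinase driving another model of the series, was at 0.15 in PyMt 3, 0.46 in PyMt341 and 0.70 in PyMt342, and from −0.12 to 0.55 in the 6 tumors without the gain. Egfr was at 0.61, 0.31 and 0.38 in the same order, against −0.03 to 0.53. Grb2, the adaptor that links receptors and middle T complexes to Ras, was at 0.32, 0.66 and 0.57, against −0.33 to 0.42. The groups overlapped for all these genes, each time with PyMT_11570 above the lowest tumor with the gain.

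Tumor suppressor genes on the chromosome stood as follows. Nf1, a negative regulator of Ras measured by 4 probes, was at 0.58 in PyMt 3, 0.50 in PyMt341 and 0.55 in PyMt342, against −0.16 to 0.09 in the others. Trp53 was at 0.23, 0.20 and 0.40, against −0.16 to 0.22. Brca1 was at 0.76, 0.32 and 0.52, against −0.00 to 0.25. The groups did not overlap for Nf1 and Brca1, and overlapped for Trp53.

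Transcription factors, chromatin genes and structural genes followed. Stat3, a signal transducer downstream of cytokine receptors, was at 0.49, 0.31 and 0.71, against −0.56 to −0.06, and Stat5a, which drives alveolar differentiation, at 0.38, 0.36 and 0.45, against −0.23 to 0.39. Jmjd6, a jumonji-domain oxygenase gene (probe named Ptdsr), was at 0.67, 0.79 and 1.04, against −0.50 to 0.23. Stat3 and Jmjd6 did not overlap between the kinds of tumor, while Stat5a did. Tbx2, with 1 probe, was at −1.79 in PyMt342, and Ppm1d, with 2 probes, was at −0.66 in the same tumor and −0.33 in PyMt341. In PyMt342 both lie in the 6-probe segment given above, which was counted as lost between gained flanks.

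In the other 36 tumors of the series 2 met the same rule, which is 5.56% (exact Clopper-Pearson 95% interval 0.680 to 18.7%), against 3 of 9 MMTV-PyMT tumors (33.3%, 7.49 to 70.1%). Both were MMTV-Myc tumors, at 0.20 and 0.21, and in neither were 90% of the chromosome 11 probes gained. A gain over at least 90% of the chromosome 11 probes was thus seen only in the 3 MMTV-PyMT tumors among the 45 arrays. With the sign turned, as the dyes are labelled, 5 of the other 36 tumors and none of the 9 would meet the rule, 4 of the 5 with at least 98.8% of the probes gained. The difference between models was not tested, since it was known when the rule was set.

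The share of the genome altered outside chromosome 11 did not differ detectably between the 2 kinds of tumor. Of 1951 autosomal bins of 1 Mb outside chromosome 11, 14.2% were altered in PyMt 3, 8.51% in PyMt341 and 0.308% in PyMt342, where altered means lying in a segment with a mean of at least 0.2 in size. In the 6 tumors without the gain the share was 12.8% in PyMt435, 8.05% in PyMt317, 5.13% in PyMT_11570, 0.308% in PyMt427, 0.256% in PyMt 4 1 and 0.0513% in PyMT_11567. Both kinds therefore held tumors with under 1% and tumors with over 8% of the other autosomes altered, and their ranges overlapped almost fully.

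The means were 7.69% ± 7.01 (SD, n = 3) with the gain and 4.43% ± 5.24 (SD, n = 6) without it, so that they lay 3.25 percentage points apart (p = 0.357 by an exact permutation test over 84 assignments, two-sided; adjusted over 5 measures, 0.595). Such a test cannot give a p below 0.0238. Without PyMt 3 the difference was −0.0256, so its direction rests on that tumor, and with density-peak centring it was 6.40 (exact p = 0.119). Without the 2 noisiest arrays it was 2.33. Within the scan date that held PyMt341 and 3 tumors without the gain the difference was 1.45, within the scan session that adds PyMt342 (2 against 3 tumors) it was −2.65, and on the date of PyMt 3 (14.2%) the only other tumor was PyMt 4 1 (0.256%).

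**Figure D2:**
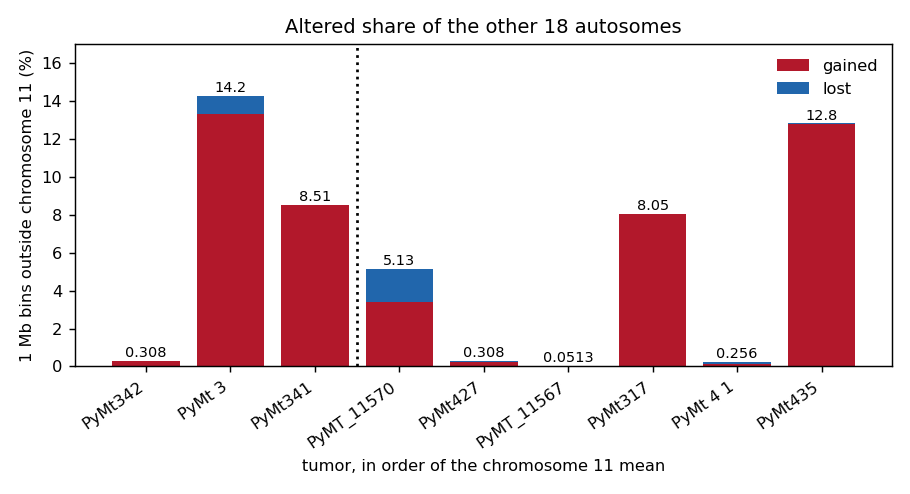
Share of 1 Mb bins outside chromosome 11 (1951 bins) that lay in gained (red) or lost (blue) segments, in percent, for each MMTV-PyMT tumor, ordered by the chromosome 11 mean; the dotted line separates the 3 tumors with the gain from the 6 without. PyMt 3 (14.2%) and PyMt435 (12.8%) are the highest of their kinds, and both kinds include tumors near 0.

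Nearly all of the altered share was gain. Gained bins made up 7.38% ± 6.58 with the chromosome 11 gain and 4.10% ± 5.26 without it (difference 3.28, exact permutation p = 0.333), and lost bins 0.308% ± 0.533 and 0.333% ± 0.691 (exact permutation p = 0.905). With density-peak centring the gained shares were 8.12 percentage points apart (exact permutation p = 0.0476, adjusted 0.238), and without PyMt 3 they were 0.308 apart. PyMt341 and PyMt342 had no lost bin, and PyMt 3 had 0.923%. PyMT_11570 had the most lost bins of the 9, at 1.74%, but 2.72% with at least 20 probes in a segment and 0% by the authors' intervals, and its altered autosomes, 4 as reported, were then 6 and 0. The number of altered autosomes, those with at least 10% of their probes gained or lost, was 4 in PyMt 3, 2 in PyMt341 and 0 in PyMt342, against 4 in PyMT_11570, 2 in PyMt435, 1 in PyMt317 and 0 in the other 3 (exact permutation p = 0.690). Segment ends numbered 57.7 ± 9.07 and 73.3 ± 25.4 (exact permutation p = 0.357). None of these measures separated the kinds.

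Each of the 3 tumors with the gain had a different set of other changes. PyMt 3 gained 3 further whole chromosomes, with means of 0.43 on chromosome 15, 0.43 on chromosome 17 and 0.38 on chromosome 14, next to 0.42 on chromosome 11. It also lost chr12:103547351-116581222 (mm8, 259 probes) at −0.21, and its unaltered autosomes stood between −0.12 and 0.02. PyMt341 gained chromosome 15 at 0.39, the level of its chromosome 11 (0.40), and chromosome 18 at 0.73, with all 76 bins of the latter at or above 0.2. PyMt342 had no other altered autosome. Its next highest chromosomes were 8, at 0.13, and 15, at 0.10, with 76 of 103 and 58 of 85 bins above 0.

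The tumors without the chromosome 11 gain were not free of whole-chromosome gains, and theirs lay elsewhere. PyMt317 gained chromosome 2 at 0.27. PyMt435 gained chromosome 6 at 0.46 and chromosome 10 at 0.33, and its chromosome 1 stood at 0.14, with 152 of 159 bins above 0. PyMT_11570 had partial changes, which included a gain over chr15:3229082-65730329 (mm8, 630 probes, mean 0.23) and losses of −0.22 to −0.23 on chromosomes 2, 10 and 19. PyMt427, PyMt 4 1 and PyMT_11567 had no altered autosome. Chromosomes 2, 6 and 10 were gained in 1 of 6 tumors without the gain and in 0 of 3 with it, and chromosomes 14, 17 and 18 in 1 of 3 with it and 0 of 6 without.

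**Figure D3:**
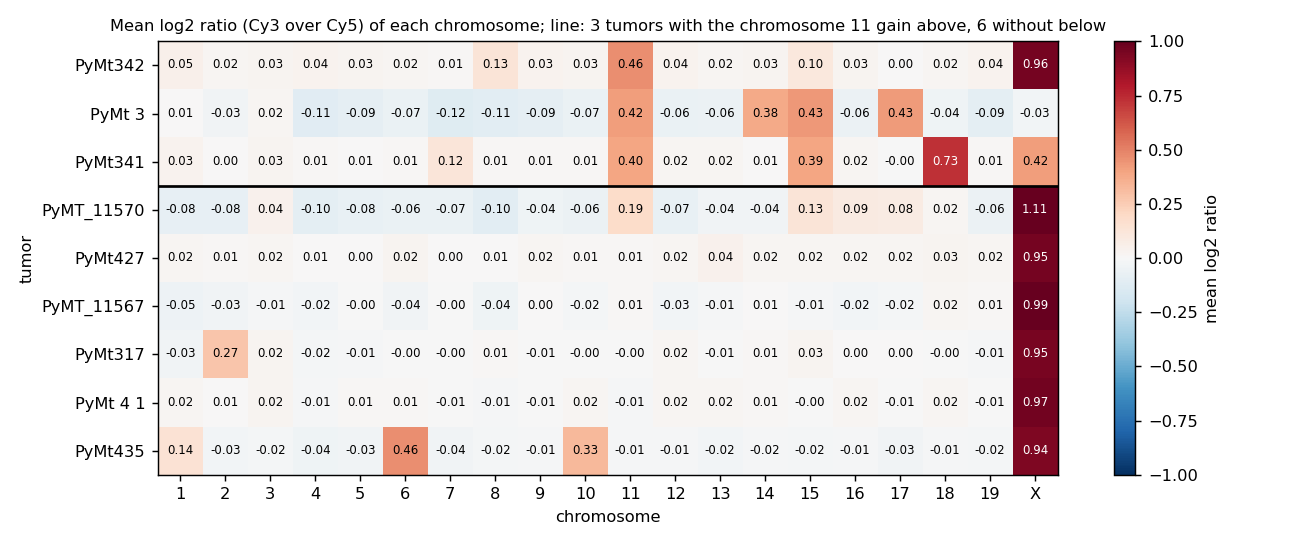
Mean log2 ratio (Cy3 over Cy5) of each autosome and chromosome X in the 9 MMTV-PyMT tumors, on a colour scale from −1 to 1, with the 3 tumors with the chromosome 11 gain above the line. Chromosome 15 is high in PyMt 3 (0.43) and PyMt341 (0.39), chromosome 18 only in PyMt341 (0.73), chromosome 6 only in PyMt435 (0.46), and chromosome X is low in PyMt 3 (−0.025) and PyMt341 (0.42).

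Chromosome 15 differed most among the 18 other autosomes. Its mean was 0.43 in PyMt 3, 0.39 in PyMt341 and 0.10 in PyMt342, and in the 6 tumors without the gain −0.02 at the lowest, 0.01 at the median and 0.13 at the highest, in PyMT_11570. The groups overlapped, since PyMT_11570 lay above PyMt342, and by bins at or above 0.2 it had 40 of 85, against 84, 82 and 7 in the 3 tumors, while PyMT_11567 had 12. Chromosome 15 was called gained in 2 of 3 tumors with the chromosome 11 gain, and in 1 of 6 without it.

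The difference was 0.29, from 0.31 ± 0.18 (SD, n = 3) against 0.02 ± 0.06 (SD, n = 6), with an exact permutation p of 0.0476. After adjustment over the 18 autosomes this was 0.857, so that no autosome passed the adjusted threshold of 0.05, and chromosome 15 was the only 1 of the 18 with an unadjusted exact p under 0.05. With 84 assignments a single autosome cannot adjust below 0.429 over 18, so the adjusted threshold was out of reach for 1 autosome alone. With density-peak centring the difference was 0.38, and chromosomes 15, 14 (0.23) and 17 (0.23), among others, had an exact permutation p of 0.0238, adjusted 0.107. With centring outside chromosome 11, the exact p of chromosome 14 was 0.0238 and that of chromosome 15 was 0.0476. The other autosomes had adjusted p-values of 0.976 with the largest differences on chromosomes 18 (0.23), 14 (0.14) and 17 (0.13), each set by 1 tumor. Within scan dates the chromosome 15 difference was 0.38 (1 against 3 tumors) and 0.44 (1 against 1), within scan session 1 (2 against 3) it was 0.24, and without the 2 noisiest arrays it was 0.30 (exact permutation p = 0.0571).

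**Figure D4:**
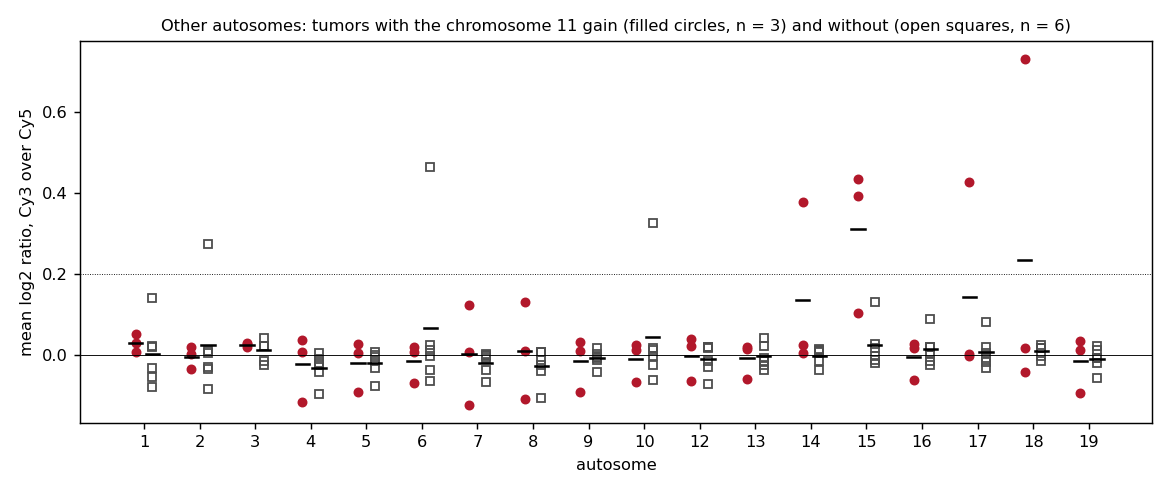
Mean log2 ratio (Cy3 over Cy5) of each of the 18 autosomes other than 11 in tumors with the chromosome 11 gain (filled circles, n = 3) and without it (open squares, n = 6); black bars are group means and the dotted line is 0.2. On chromosome 15 the group means are 0.31 and 0.02, while on chromosomes 14, 17 and 18 a single circle lies above 0.2.

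Over 1 Mb bins, limma called 16 of 1951 bins outside chromosome 11 at an adjusted p of 0.05, 15 of them higher in tumors with the gain (0.769% of the bins) and 1 lower (0.0513%). The adjustment covered all 2057 bins, including the 106 of chromosome 11 that the rule used, of which 77 passed. These lower the adjusted p of the other bins, so the calls lean on values that chose the members. An adjustment over the 1951 bins alone was not made. Of the 16, 13 lay on chromosome 15, out of its 85 bins, and chromosomes 14, 3 and 10 held 1 each. Every tumor with the gain was above every tumor without in 31 bins (1.59%), 18 of them on chromosome 15, and below in 106 bins (5.43%), none of them on that chromosome. The median difference over the bins of a chromosome was 0.26 on chromosome 15, 0.18 on chromosome 18, 0.11 on chromosome 14 and 0.08 on chromosome 17, and negative on every other autosome except 11. The lower values depend on the centring, since with density-peak centring 251 bins were higher and 7 lower at an unadjusted limma p under 0.05, against 94 and 101 as reported.

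In the called bins of chromosome 15, PyMt342 was below 0.2 in 8 of the 13, down to 0.08. The call itself selects bins in which the groups lie apart, and its adjusted p-values were lowered by the chromosome 11 bins. In the bin named for Celsr1, a cadherin of planar cell polarity (chr15:85000001-86000000, mm8, 24 probes), the medians were 0.27 in PyMt 3, 0.44 in PyMt341 and 0.23 in PyMt342, against −0.11 to −0.01 in the other 6, a difference of 0.35 ± 0.06 (SE, limma adjusted p = 0.00498). In the bin of Ncald, a neuronal calcium sensor (chr15:37000001-38000000, 15 probes), they were 0.50, 0.53 and 0.23, against −0.05 to 0.13 (difference 0.35, limma adjusted p = 0.0188). In that of Ropn1l, a gene of the sperm fibrous sheath (chr15:31000001-32000000, 18 probes), they were 0.50, 0.49 and 0.20, against −0.10 to 0.15 (difference 0.38, limma adjusted p = 0.0172). PyMt342 was the lowest of the 3 in each of these, as for the chromosome as a whole.

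The remaining named bins had differences of 0.31 to 0.67 in size. Those on chromosome 15 were named for AK043790, Tbc1d22a, AB185844, Nell2 and Ccdc184. The bin with the largest difference, of AK043790 (0.67 ± 0.12, SE, limma adjusted p = 0.00854), held 3 probes, and so did that of Tbc1d22a (0.63). Outside chromosome 15, the bin of AK014273 on chromosome 14 was higher, by 0.33, and that of D10054 on chromosome 10 lower, by −0.38. The number of called bins was unstable: it was 74 with density-peak centring, 3 with normexp 6 with PyMT_11570 counted among the members, 9 without the 2 noisiest arrays, 3 without PyMt341 and 44 without PyMt342.

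The AK043790 bin also holds the 1 probe of Myc, the transcription factor gene often amplified in mammary cancer. That probe was at 0.79 in PyMt 3, 1.78 in PyMt341 and 2.56 in PyMt342, and at 3.34 in PyMt435, 2.59 in PyMt427, 0.66 in PyMt 4 1, 0.65 in PyMt317, −0.06 in PyMT_11567 and −0.18 in PyMT_11570. The groups overlapped and the difference was 0.54 ± 0.76 (SE, limma adjusted p = 0.694). The nearest probe, 0.03 Mb away, was at 0.27 in PyMt435 and 0.35 in PyMt427, and the next, 0.15 Mb away, at 0.25 and 0.46. In PyMt341 these neighbours were at 0.79 and 1.13, in PyMt342 at 0.72 and 0.94, and in PyMt 3 at 0.56 and 0.46. They were thus higher in PyMt341 and PyMt342, whereas for the farther probe PyMt 3 was level with PyMt427. In the other 36 tumors the Myc probe ranged from −0.68 to 5.80, and these neighbours reached 0.85 and 1.18.

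Over gene names, each the mean of its probes, 58 of 18604 genes outside chromosome 11 were higher in tumors with the gain (0.312%) and 0 lower (0%), by limma at an adjusted p of 0.05. That adjustment covered all 20194 genes, including the 1590 of chromosome 11 that the rule used, of which 227 passed. These lower the adjusted p of the other genes, so the calls lean on values that chose the members. An adjustment over the 18604 genes alone was not made. At an unadjusted p under 0.05 there were 1583 higher and 1195 lower. Every tumor with the gain was above every tumor without in 784 genes (4.21%). Of the 58 called genes, 25 lay on chromosome 15, 10 on chromosome 17 and 9 on chromosome 14. Egflam, an extracellular matrix gene of chromosome 15 picked after its values were seen, was at 0.53, 0.60 and 0.34 in PyMt 3, PyMt341 and PyMt342, against −0.20 to −0.04 (limma adjusted p = 0.0267). Bmpr1a, a bone morphogenetic protein receptor gene of chromosome 14 picked likewise, was at 0.61, 0.72 and 0.86, although chromosome 14 was gained in PyMt 3 alone. The count was 0 when PyMT_11570 was taken as a member and when PyMt317, PyMt341 or PyMt342 was left out, 1 without PyMt427, 11 without PyMt435, 20 without PyMT_11567, 30 without PyMT_11570, 38 without PyMt 4 1 86 without PyMt 3 (72 higher and 14 lower), 102 without both noisy arrays and 76 (68 higher and 8 lower) in a fit to all 45 arrays.

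No gene of the 4 lists was called outside chromosome 11 by limma at an adjusted p of 0.05. Of 33 signalling partners of middle T outside the chromosome, 32 had a probe and their median difference was 0.10, against −0.01 for all genes, with 3 higher (Ppp2r1a, Pdpk1 and Ywhaz) and 4 lower (Gab1, Map2k1, Map2k2 and Ywhab) at an unadjusted p under 0.05. The 31 measured mammary oncogenes had a median of −0.00 (5 higher, 0 lower unadjusted), the 24 tumor suppressors 0.07 (5 higher, namely Rb1, Smad4, Tsc2, Atm and Lats2, and 0 lower) and the 14 mammary lineage genes −0.00 (0 higher, and Trp63 and Cd24a lower). Over all genes outside chromosome 11 the unadjusted shares were 8.51% higher and 6.42% lower. The smallest limma adjusted p of the lists outside chromosome 11 was 0.0646, for Rspo2. The 3 partners on chromosome 11, which the rule used, had differences of 0.57 for the 14-3-3 gene Ywhae, 0.49 for Grb2 and 0.44 for the phosphatase 2A catalytic subunit gene Ppp2ca. The groups overlapped for Grb2 and Ppp2ca, and the highest value of Ppp2ca was in PyMt317, at 1.44.

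Among the partners, phosphatase 2A, kinases and adaptors were altered in single tumors. Ppp2r1a, the scaffold subunit of phosphatase 2A that middle T binds, lay in a gained segment of chromosome 17 and was at 0.48 in PyMt 3, against 0.10 and 0.06 in PyMt341 and PyMt342 and −0.49 to −0.02 in the others. Pdpk1, the kinase that phosphorylates Akt, was at 0.82 in PyMt 3 on the same chromosome, and the Ras activator Sos1 at 0.66, while Pdpk1 was at 0.48 in PyMt 4 1 with no gain there. Ywhaz, a 14-3-3 gene of chromosome 15, was at 0.40 in PyMt 3, 0.63 in PyMt341 and 0.44 in PyMt342, against −0.50 to 0.20 (difference 0.59 ± 0.17, SE, limma adjusted p = 0.118). The gain of another tumor held partners too. On the gained chromosome 2 of PyMt317, Src was at 0.09, against −0.46 to −0.04 in the other 8. The phospholipase gene Plcg1 was at 0.25 there and at 0.26 in PyMt341, and the 14-3-3 gene Ywhab was at 0.55 there, 0.52 in PyMT_11567 and 0.54 in PyMT_11570. Neither PyMt341 nor these arrays had a gain of chromosome 2.

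Of the 5 oncogenes higher at an unadjusted p under 0.05, Rspo2, Wnt1 and Wnt10b are Wnt pathway genes of chromosome 15, and Ccnd1 and Ccne1 are cyclin genes of chromosome 7 with 1 probe each. Rspo2, a secreted enhancer of Wnt signalling, was at 0.31 in PyMt 3, 0.56 in PyMt341 and 0.18 in PyMt342, against −0.43 to 0.03 in the others (difference 0.58 ± 0.13, SE). Wnt1 was at 0.31, 0.59 and 0.18, against −0.45 to 0.01 (difference 0.51, limma adjusted p = 0.0998). Wnt10b was at 0.52, 0.43 and 0.22, against −0.18 to 0.35. The ranges did not overlap for Rspo2 and Wnt1, and did for Wnt10b. On the gained chromosome 6 of PyMt435, Met, the hepatocyte growth factor receptor gene, and the cyclin gene Ccnd2 were both at 0.50, and on its gained chromosome 10 the cell cycle kinase gene Cdk4 was at 0.42. Esr1, the estrogen receptor gene on the same chromosome, was at 0.30 in PyMt435 and at −0.19 to 0.16 in the other 8. On the gained chromosome 2 of PyMt317, the mitotic kinase gene Aurka was at 0.37, against −0.27 to 0.07 in the other 8. On the gained chromosome 17 of PyMt 3, the cyclin gene Ccnd3 was at 0.38, against −0.14 to 0.27. Some other listed oncogenes of gained chromosomes were highest in a tumor without that chromosome's gain. Mdm2, a p53 inhibitor gene of chromosome 10, was at 0.27 in PyMt435 and 0.36 in PyMT_11570, Zfp217 on chromosome 2 at 0.18 in PyMt317 and 0.48 in PyMt 4 1, and the receptor gene Notch4 on chromosome 17 at −0.02 in PyMt 3 and 0.60 in PyMT_11570.

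Tumor suppressors and lineage genes lay in gains as well. Fhit, a fragile-site gene on chromosome 14, was at 0.37 in PyMt 3, which gained that chromosome, and at −0.17 to 0.14 in the other 8. Bap1, a deubiquitinase gene with 1 probe in the same gained segment of PyMt 3, was at −1.03 there, 0.56 in PyMt341 and 0.69 in PyMt342, against −1.17 to 0.21 in the others. Rb1, on chromosome 14, was at 1.16 in PyMt 3, 0.66 in PyMt341 and 0.61 in PyMt342, against −0.38 to 0.59 in the others, with 2 probes. Smad4, on chromosome 18, was at 0.76 in PyMt341 and between −0.18 and 0.17 in the other 8. Among lineage genes, Prlr, the prolactin receptor gene on chromosome 15, was at 0.53, 0.59 and 0.14, against −0.04 to 0.48, and Gata3, a luminal transcription factor gene on chromosome 2, was at 0.34 in PyMt317 and below 0 in the others. Cd24a, a luminal surface marker gene on chromosome 10, was at −0.30, −0.38 and −0.30, against −0.06 to 0.65 (difference −0.62, limma adjusted p = 0.0906, 1 probe).

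The highest level outside chromosome 11 over at least 20 probes was a focal amplification on distal chromosome 7 in PyMt341, a tumor with the gain. It had 2 segments, chr7:139088198-141129697 (mm8, 2.04 Mb, 108 probes) at a mean of 2.75 ± 0.32 (SD over probes) and chr7:141483295-142194883 (0.712 Mb, 32 probes) at 2.77 ± 0.27. The 30 probes between them, over 0.354 Mb, had a mean of −0.05 and none was above 0.21. In the other 8 MMTV-PyMT tumors these stretches lay between −0.18 and 0.05, and the highest of the other 36 tumors was at 0.42 in the first. The amplification was thus found in 1 of the 9 tumors.

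The first of these segments holds Hras, the Ras gene that acts downstream of middle T, whose only probe (named Hras1) was at 2.76 in PyMt341 and at −0.60 to 0.10 in the other 8 tumors. Other genes in it were Irf7, an interferon regulatory factor (2.88), Sirt3, a mitochondrial deacetylase (2.81), Cyp2e1 (2.92) and the interferon-induced membrane protein genes Ifitm1 (2.38) and Ifitm3 (2.57). The second holds the mucin genes Muc6 (2.73), Muc5ac (2.87) and Muc5b (3.06), the phosphatase gene Dusp8 (2.70) and Ctsd, which encodes cathepsin D (2.77). These values were of like height over both segments.

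**Figure D5:**
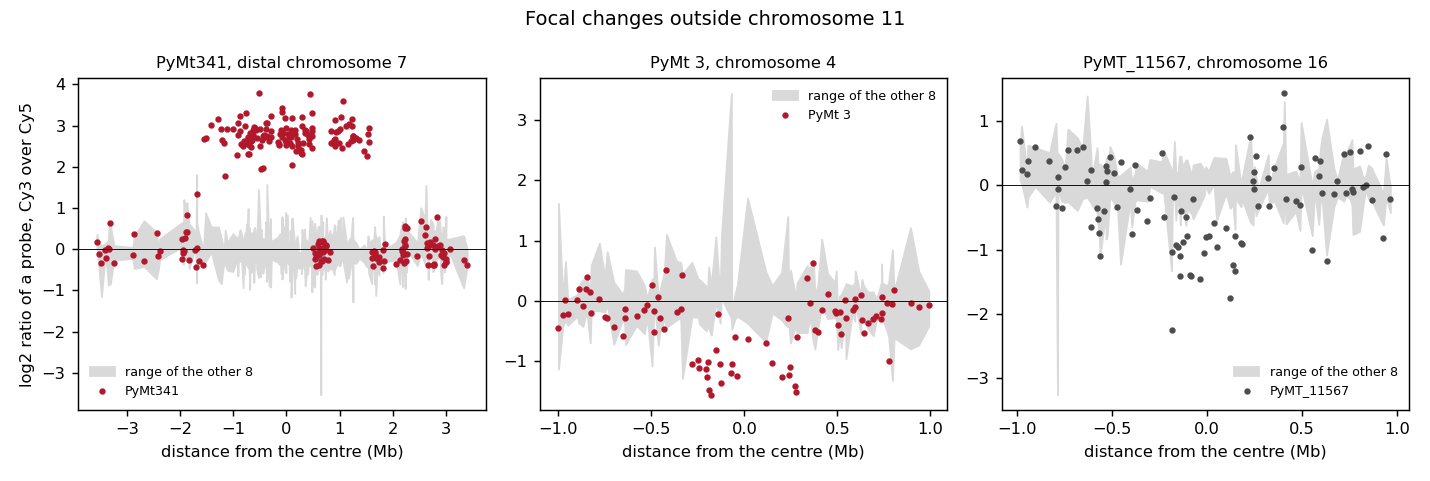
Log2 ratio (Cy3 over Cy5) of single probes against distance in Mb from the centre of 3 focal changes: distal chromosome 7 in PyMt341, chromosome 4 in PyMt 3 and chromosome 16 in PyMT_11567; grey is the range of the other 8 MMTV-PyMT tumors. The chromosome 7 probes of PyMt341 lie near 2.75 in 2 blocks with a gap of 30 probes near 0, and the losses have means of −1.04 and −0.99.

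The deepest losses with at least 20 probes were also focal. PyMt 3 lost chr4:132722438-133287235 (mm8, 0.565 Mb, 26 probes) at a mean of −1.04 ± 0.35 (SD over probes), where the other 8 tumors lay between −0.09 and 0.26 and the lowest of the other 36 was −0.96. It holds Nr0b2, an orphan nuclear receptor gene (−1.56), Rps6ka1, a kinase gene downstream of MAPK (−0.88), Nudc, a nuclear migration gene (−1.25), and Lin28a, an RNA-binding regulator of let-7 (−1.18). PyMT_11567, a tumor without the gain, lost chr16:17383469-17755111 (0.372 Mb, 27 probes) at −0.99 ± 0.46, which holds the adaptor gene Crkl (−1.16) and Lztr1, a regulator of Ras degradation (−0.97). The noise of this array is the highest of the 9. Each kind of tumor thus held a loss of this kind in 1 tumor.

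Shorter segments were numerous. Of the altered segments outside chromosome 11, 53 of 60 in PyMt435 and 6 of 19 in PyMt 3 had under 10 probes. The median of the probes, beside the mean, was past the threshold in 20 of the 60 altered segments of PyMt435, 17 of 19 in PyMt 3, 28 of 31 in PyMt342 and all 24 in PyMT_11567. The extremes named by rule included Rnase6 (5.42) and Map4k1 (−3.91) in PyMt 3, Utrn (−4.65) in PyMt341, Muc4 (4.48) and Gtf2h4 (−1.80) in PyMt342, Impg1 (1.83) and Wiz (−4.28) in PyMt 4 1, Dnajc5 (2.67) and Batf (−2.35) in PyMt317, Mlf1 (2.32) in PyMt427, Tmem5 (2.48) and Foxo6 (−3.93) in PyMt435, Ireb2 (6.20) in PyMT_11567 and Lrrc6 (8.56) in PyMT_11570, each as the value of its most extreme probe in a segment of 5 to 9 probes.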

How the data were processed

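DNA of 45 mouse mammary tumors, 9 of them from MMTV-PyMT mice, had been hybridized against reference DNA on Agilent 44K 2-colour arrays, with probes placed on the mm8 assembly. The deposited log10 ratios of Cy5 over Cy3 are per the file headers the output of Agilent Feature Extraction 9.5.1.1 (10.7 in the submitters' processing notes), with background subtracted and dyes normalized within each array. The deposited intensities, the brightness of each spot and its local background in both dyes, come from the same scans. The authors' table of intervals gives log2 amplification and deletion values from the ADM-2 caller, which served only to settle the direction and as an alternative. No filter on dim spots was applied.

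The ratios were turned to Cy3 over Cy5, converted to log2 and centred on the median of 40666 autosomal probes of 42235. Segments were split recursively where the test statistic exceeded 6, with at least 5 probes, and counted as gained or lost at a mean of at least 0.2 or at most −0.2. Bins of 1 Mb with at least 3 probes were given the median of their probes (2057 bins, a median of 16 probes). Both kinds of tumor were compared by exact permutation of 9 tumors for single values, with Benjamini-Hochberg adjustment over 5 measures or 18 autosomes, and by limma 3.58.1 (R 4.3.3) over all bins and all gene names, each the mean of its probes. The limma adjustment covered chromosome 11 too, whose values the rule used. The rest was computed in Python 3.11.15 with numpy 2.4.6, pandas 2.3.3, numba 0.67.0 and scipy 1.17.1. Segmentation, the exact permutation test and the limma fit over bins were tested on simulated data, and the other steps were not. The number of arrays and probes limits the precision. Of 20798 names on the probes, 15218 matched a current RefSeq symbol.

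The members, gene lists, tests and naming rules were chosen with earlier results of these data known. Called bins were named for the gene of their most different probe, in the 10 with the largest differences, listed genes were named where they lay on chromosome 11 or in an altered segment, and extreme segments for their most extreme named probe, up to 3 highest and 3 lowest in each tumor. Other genes were named after their values were seen. No columns of per-sample values were left out. Alternatives changed the centring, background correction, dye direction, spot filters, segmentation, bin size, batch terms, the arrays fitted and the arrays left out. No sequence is printed, since no mm8 genome was used here. Some of the listed genes are not reported here.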

Additional observations from a re-analysis of the deposited data

Results flagged for a closer look

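Among the 6 MMTV-PyMT tumors without the gain, 5 of 23 sets of values held a tumor far from the other 5. Chance would give about 1 set in 20 if the sets were independent. These sets share tumors, and a single gained chromosome can set a tumor apart, so no excess over chance is read from the count. PyMT_11570 stood apart in the share of its other autosomes that was lost (1.74%) and in its chromosome 15 mean (0.13). PyMt317 stood apart in chromosome 2 (0.27), and PyMt435 in chromosomes 6 (0.46) and 10 (0.33).

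Chromosome X was outside the comparisons. Its mean was −0.025 in PyMt 3 and 0.42 in PyMt341, both tumors with the chromosome 11 gain, and 0.96 in PyMt342, the other tumor with it. In the 6 tumors without the gain it lay between 0.94 and 1.11, and in the other 36 tumors of the series between 0.58 and 1.74, with a median of 0.98. The sources used here do not give the sex of the reference animals, and the difference was not tested.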

How the results depend on the processing

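The number of members was 3 under the alternatives of the scaling and spot filters, except that it was 4 with centring outside chromosome 11 and 0 with the dyes as labelled. No paired analysis was possible because the tumors carry replicate numbers only in accession order. The difference in altered share (percentage points) ranged from −0.0256 without PyMt 3 to 6.95 without PyMt342. That in gained share was −0.0256 with the dyes as labelled. That in lost share, −0.0256 as reported, turned positive in many settings, at 0.128 with loess, 3.28 with the dyes as labelled, 1.23 at a segment threshold of 0.15, 0.0598 at a split statistic of 8, 0.384 with a running median, 0.0609 with bins of 2 Mb, 0.615 with PyMT_11570 as a member, 0.308 with scan date and 0.217 with scan session as a block, 0.256 without the 2 noisiest arrays, and −0.333 to 0.256 leaving out 1 tumor. The difference in altered autosomes was −0.333 with a running median and −0.167 to 1.83 leaving out 1 tumor (the lowest without PyMt 3, the highest without PyMt342), and that in segment ends 9.83 with normexp, 6 at a split statistic of 5 and 4.5 with at least 20 probes in a segment. With the dyes as labelled the differences of chromosomes 14, 15, 17 and 18 were −0.14, −0.29, −0.13 and −0.23. Leaving out 1 tumor gave −0.0085 to 0.21 for chromosome 17, lowest without PyMt 3, and −0.022 to 0.36 for chromosome 18, lowest without PyMt341. Called bins, 16 as reported, numbered 74 with density-peak centring, 3 with normexp, 6 with PyMT_11570 as a member, 69 with scan date and 9 with scan session as a block, 147 within scan date 1, 7 within scan session 1, 33 with the slide as a random block, 1 in a fit to all 45 arrays and 9 without the 2 noisiest arrays. They numbered 3 to 44 leaving out 1 tumor: 3 without PyMt341, 4 without PyMt 3, 7 without PyMt 4 1 or PyMt435, 8 without PyMt317 or PyMT_11567, 10 without PyMt427 and 44 without PyMt342. Called genes, 58 as reported, numbered 0 with PyMT_11570 as a member, 102 without the 2 noisiest arrays and 0 to 86 leaving out 1 tumor. The causes were not tested.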
